A study of Mus musculus with 8 samples.

Results

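The genes described here are 10 core enzymes of glycolysis, Gpi1, Pfkl, Pfkp, Aldoa, Tpi1, Gapdh, Pgk1, Pgam1, Eno1 and Pkm, out of 24421 gene symbols counted. They were picked by symbol with their knockout against wild-type difference already known, so that difference is given below as a description and carries no p-value. Sequencing counts came from CD4+ T cells sorted from digested knee joints with antigen induced arthritis. In this model immunised animals develop joint inflammation after antigen is placed in the knee. The groups were 4 Slc7a5 knockout (KO) and 4 wild-type (WT) libraries, all from male mice aged 16 weeks. Slc7a5 encodes LAT1, a carrier of large neutral amino acids. The labels name neither the Cre line or cell type of the deletion nor whether each library came from its own animal. The 8 libraries held 18837650 to 36436923 counts.

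Glycolysis splits glucose into pyruvate in the cytosol and gains ATP and NADH on the way. Its upper part, from glucose 6-phosphate to the triose phosphates, spends ATP, and its lower part, from glyceraldehyde 3-phosphate to pyruvate, regains it. T cells raise the enzymes and glucose carriers of this pathway when they are activated. Amino acid uptake through LAT1, mTORC1 signalling, MYC and the hypoxia-inducible factor HIF-1 are known inputs to that program in mouse T cells.

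The labelled knockout and the state of the libraries were examined first. Slc7a5 had 0 counts in all 4 KO libraries, against 385, 194, 410 and 0 counts in WT replicates 1 to 4, so the library labelled WT replicate 4 is not set apart from KO by this gene. KO replicate 4 stood apart in transcript loss. Of 1625 genes with a mean of 100 to 500 CPM (counts scaled to library size after TMM), 293 (18%) lay below 10% of their median there, against 0 to 2.34% in the other KO and 0 to 0.554% in the WT libraries. Cd3e, a subunit of the T cell receptor complex, was at 365 ± 24.2 CPM in KO and 477 ± 66.2 CPM in WT (SD, n = 4 each), and Cd4 at 427, 344, 402 and 1.78 CPM in KO, against 570, 373, 388 and 501 CPM in WT.

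The promoters are shown for Pkm, the member with the largest difference, and for Pgk1, whose KO levels spread beyond both ends of the WT range. Each is RefSeq sequence of build GRCm38.p6, 250 bases before to 50 after a start site, with ACGTG or GCGTG, the core letters of the HIF-1 binding motif, in capitals on either strand (on the reverse strand they read CACGT or CACGC). Pkm has 2 listed starts on the plus strand, at chr9:59656326-59656625 and chr9:59656977-59657276, and Pgk1 lies on the plus strand at chrX:106186850-106187149.
Pkm first start: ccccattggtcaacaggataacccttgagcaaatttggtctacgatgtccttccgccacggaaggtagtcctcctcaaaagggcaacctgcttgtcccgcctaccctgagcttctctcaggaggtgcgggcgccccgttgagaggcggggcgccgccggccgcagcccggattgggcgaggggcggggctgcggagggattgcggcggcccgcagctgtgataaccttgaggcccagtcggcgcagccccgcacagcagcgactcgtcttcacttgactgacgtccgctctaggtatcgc
Pkm second start: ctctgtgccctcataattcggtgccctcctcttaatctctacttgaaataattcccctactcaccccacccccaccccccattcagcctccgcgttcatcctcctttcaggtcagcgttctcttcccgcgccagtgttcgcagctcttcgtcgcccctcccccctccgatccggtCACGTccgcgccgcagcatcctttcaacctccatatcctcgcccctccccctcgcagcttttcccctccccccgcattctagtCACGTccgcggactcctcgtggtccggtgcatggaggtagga
Pgk1: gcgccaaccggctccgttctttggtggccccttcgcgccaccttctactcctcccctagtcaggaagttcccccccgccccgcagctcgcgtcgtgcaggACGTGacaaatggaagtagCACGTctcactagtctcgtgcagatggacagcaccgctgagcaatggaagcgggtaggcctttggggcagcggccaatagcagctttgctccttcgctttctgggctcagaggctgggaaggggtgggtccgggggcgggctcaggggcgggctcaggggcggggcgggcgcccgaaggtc
The second Pkm window and the Pgk1 window hold 2 ACGTG each, and the first Pkm window holds neither motif. At the most upstream start, 6 of 10 members had ACGTG or GCGTG (60.0%), against 43.84% of 27025 genes. Counting any listed start it was 8 of 10 members (80.0%), against 46.73% of genes. CACGTG, the E-box read by MYC, which overlaps ACGTG, was in 0 of 10 members and in 7.24% of genes. These are matches of letters and do not show binding.

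Pkm and Aldoa carried most of the members' counts and were lower in KO in every library. Pkm, the muscle-type pyruvate kinase that makes pyruvate and ATP in the last step, was at 1697, 900.4, 1395 and 1429 CPM in KO libraries 1 to 4, against 2504, 2484, 2549 and 3167 CPM in WT libraries 1 to 4. The highest KO library lay below the lowest WT library. The means were 1355 ± 332 CPM in KO and 2676 ± 328 CPM in WT (SD, n = 4 each), a log2 fold change of −0.98 (SE 0.21). The Pkm gene lies at chr9:59656576-59679372 and Aldoa at chr7:126795234-126800994 (GRCm38). Aldoa, the aldolase that cleaves fructose 1,6-bisphosphate, was at 1091, 754.1, 1029 and 1861 CPM in KO, against 2032, 1931, 1998 and 2631 CPM in WT. These groups did not overlap either, although KO replicate 4 came within reach of WT. The log2 fold change of Aldoa was −0.86 (SE 0.26).

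**Figure D1:**
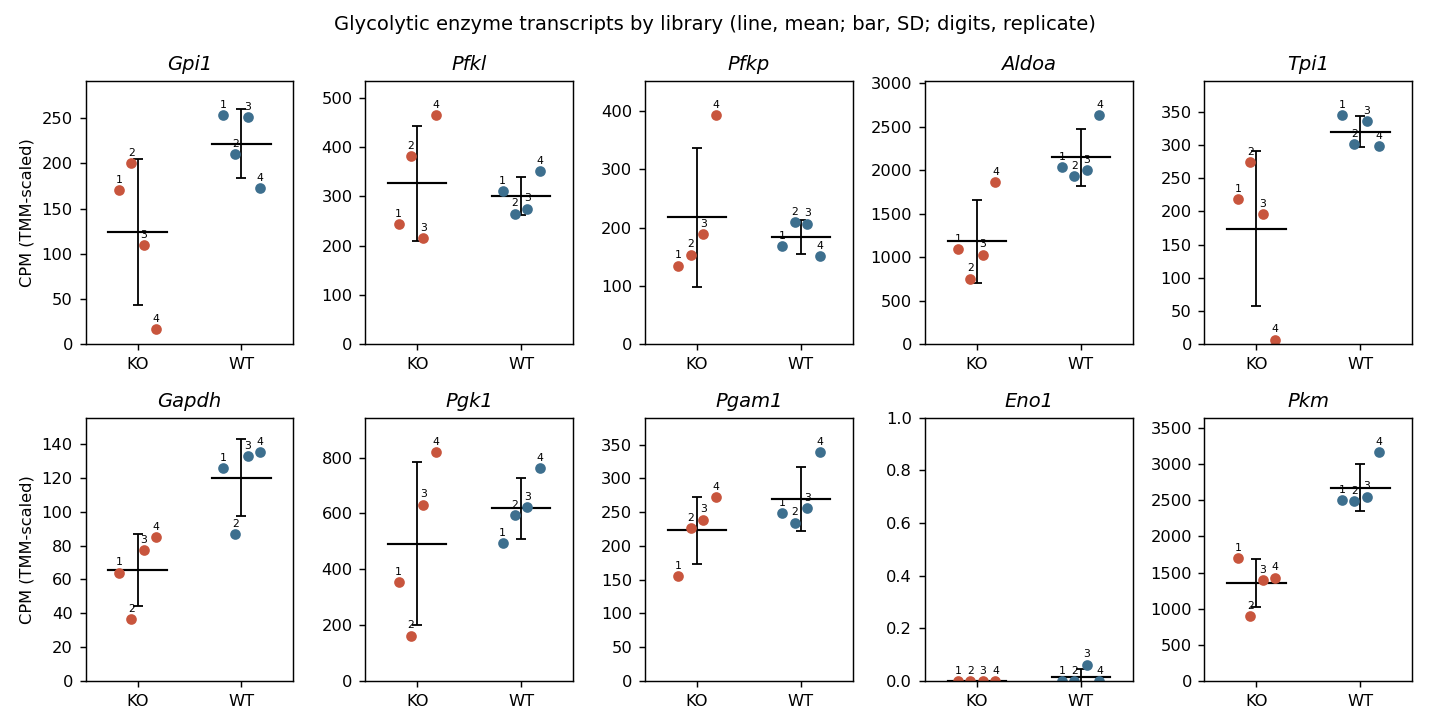
CPM (vertical axis, each panel from 0 on its own scale) of the 10 enzymes in 4 KO libraries (left) and 4 WT libraries (right); lines are means, bars SD and digits replicate numbers. Pkm is at 900.4 to 1697 CPM in KO and at 2484 to 3167 CPM in WT, and KO replicate 4 is close to 0 for Gpi1 and Tpi1.

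Transcripts of 4 members are rich in G and C, and the libraries differed in how counts followed GC content. Pkm lay at the percentile 94.1 of abundant genes for transcript GC, Aldoa at 92.9, Pfkl at 92.1 and Gapdh at 90.4, while Gpi1 (75.9), Tpi1 (75.5), Pgam1 (72.1), Pgk1 (55.9) and Pfkp (51.1) lay lower. Between transcripts of 41.4% and 56.6% GC, the fitted log2 deviation moved by −0.19, −0.716, −0.335 and −0.199 in KO 1 to 4, against 0.737, 0.098, 0.323 and 0.282 in WT 1 to 4, so that it went down in all KO and up in all WT libraries. An offset for these curves as fitted, the version specified first, left a log2 fold change of −0.20 for Pkm and turned Aldoa to 0.07. It also turned Pgk1 to 0.41 and Pgam1 to 0.45, left Gapdh at −0.03 and set Pfkl at 1.06 and Pfkp at 1.04. The median of all genes was then 0.16, against −0.12 without the offset.

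The curve of KO replicate 4 averaged −1.12 over its genes, so the offset as fitted also rescaled that whole library, while the other curves averaged 0.048 to 0.222. A version with each curve centred on 0 was added after the first result had been seen and several versions of the curves had been looked at. It gave −0.62 for Pkm, −0.53 for Aldoa, −0.54 for Gapdh and 0.50 for Pfkl. With centred curves every KO library remained below every WT library for Pkm alone, and with the curves as fitted for no member. Among all genes at a mean of at least 50 CPM, this held for 2.56% of 3472 with centred curves. It held for 1.37% of 3568 with the curves as fitted and for 3.91% of 3480 without an offset. How far GC content accounts for the differences was not tested beyond these offsets.

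**Figure D2:**
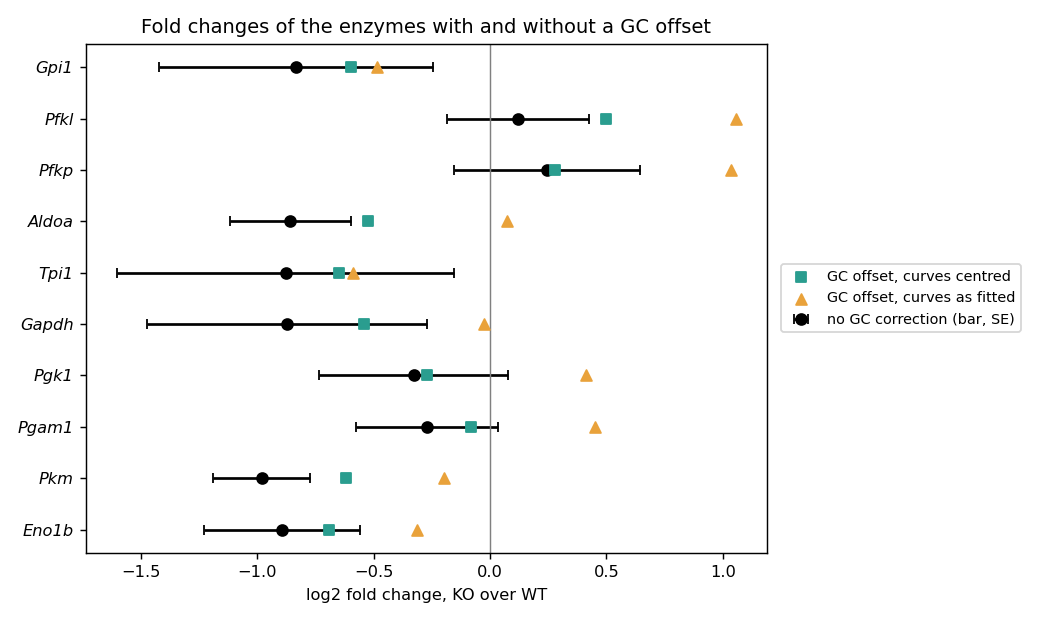
Log2 fold change of KO over WT (horizontal axis) for the 9 tested enzymes and the enolase copy Eno1b, without a GC correction (circles, bars SE), with centred GC curves (squares) and with the curves as fitted (triangles). Pkm moves between −0.98, −0.62 and −0.20, and Aldoa crosses 0 with the curves as fitted.

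In the rest of the upper part, 2 enzymes had lower and 2 higher estimates in KO. Gpi1, which turns glucose 6-phosphate into fructose 6-phosphate, was at 170.5, 200.2, 109.7 and 17.13 CPM in KO, against 253.1, 210.6, 251.3 and 172.8 CPM in WT (log2 fold change −0.84, SE 0.59). The groups overlapped, and KO replicate 4 was far below the other KO libraries. Tpi1, which interconverts the triose phosphates, was at 218.5, 274.5, 195.5 and 6.894 CPM in KO, against 344.3, 301.3, 335.7 and 297.7 CPM in WT (−0.88, SE 0.72). Every KO library lay below every WT library, but without KO replicate 4 the log2 fold change was −0.49 for both Tpi1 and Gpi1.

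Pfkl and Pfkp, liver and platelet types of the phosphofructokinase that commits sugar to glycolysis, did not follow Pkm. Pfkl was at 243.9, 381.5, 215.7 and 464.6 CPM in KO, against 310.3, 265.1, 275.4 and 351.3 CPM in WT (0.12, SE 0.31). Pfkp was at 135, 153.8, 189.2 and 392.9 CPM in KO, against 168.3, 209.4, 207.1 and 151.2 CPM in WT (0.24, SE 0.40). Both groups overlapped, KO replicate 4 was highest for both genes, and without it the estimates were −0.12 and −0.22. Per kilobase, Pfkl made up 62 ± 9.52% of phosphofructokinase transcripts in KO and 62.9 ± 7.15% in WT, and Pfkp 35.9 ± 7.65% in KO and 34.8 ± 6.06% in WT.

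In the lower part, Gapdh, which oxidises glyceraldehyde 3-phosphate and makes NADH, was at 64.07, 36.51, 77.31 and 84.88 CPM in KO, against 125.8, 86.81, 133 and 135.3 CPM in WT (−0.87, SE 0.60). The groups did not overlap, though KO replicate 4 and WT replicate 2 nearly met. Pgk1, the first enzyme to regain ATP, was at 353, 162.6, 631.7 and 819.8 CPM in KO, against 492.9, 594.3, 623.2 and 761.3 CPM in WT (−0.33, SE 0.41). The KO libraries spanned the WT range on both sides, and the estimate was −0.06 without KO replicate 2, −0.70 without KO replicate 4, −0.20 without KO replicate 1 and −0.21 without WT replicate 4. Pgam1, a phosphoglycerate mutase, was at 154.7, 226.4, 238.9 and 272.4 CPM in KO, against 248, 234.4, 255.7 and 339 CPM in WT (−0.27, SE 0.30). These overlapped, and without KO replicate 1 or WT replicate 4 the estimates were −0.13 and −0.14.

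Eno1, the enolase of most tissues, had 0 counts in every library but WT replicate 3, which had 2, and was not tested. Most reads of enolase stood under Eno1b, a copy, at 236.4, 116.1, 319.3 and 177 CPM in KO, against 325.9, 406.9, 375.8 and 468.6 CPM in WT (−0.89, SE 0.33). The groups did not overlap, but KO replicate 3 and WT replicate 1 nearly met. Per kilobase, Eno1b made up 83.9 ± 20.1% of enolase transcripts in KO and 98.7 ± 1.5% in WT. Eno3 made up 0, 22.7, 0 and 41.7% in KO libraries 1 to 4, against 2.49, 2.7, 0 and 0% in WT libraries 1 to 4. Of the 100-base windows of the Eno1 transcript, 59.02% occur in another annotated transcript and the rest in none. The sources used here do not say how the authors treated reads with several matches, and why Eno1 itself had almost no counts was not tested.

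Gapdh shared the most sequence, with 78.05% of its windows found in 86 other genes, 82 of them pseudogenes. Bases 982 to 1081 of its transcript, in the coding part on chromosome 6 (GRCm38), are shown because they occur whole in 40 other genes:
Gapdh: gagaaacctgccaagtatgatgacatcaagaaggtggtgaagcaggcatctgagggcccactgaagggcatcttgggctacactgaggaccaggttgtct
The processed pseudogene Gm12070 held more counts than Gapdh, at 170.1, 93.79, 166.7 and 205.7 CPM in KO, against 330.6, 240.9, 319.6 and 323.8 CPM in WT (−0.93, SE 0.33). Windows were shared at 67.03% in Pgk1, 39.74% in Pgam1, 16.04% in Pfkp, which overlaps Pitrm1, 9.82% in Pkm, 7.4% in Gpi1 and 0.8% in Tpi1. Pfkl and Aldoa shared none. By this count of exact matches to annotated transcripts, the levels of Gapdh, Pgk1 and Pgam1 are less certain than that of Aldoa. Near matches and copies outside the annotation were not searched.

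**Figure D3:**
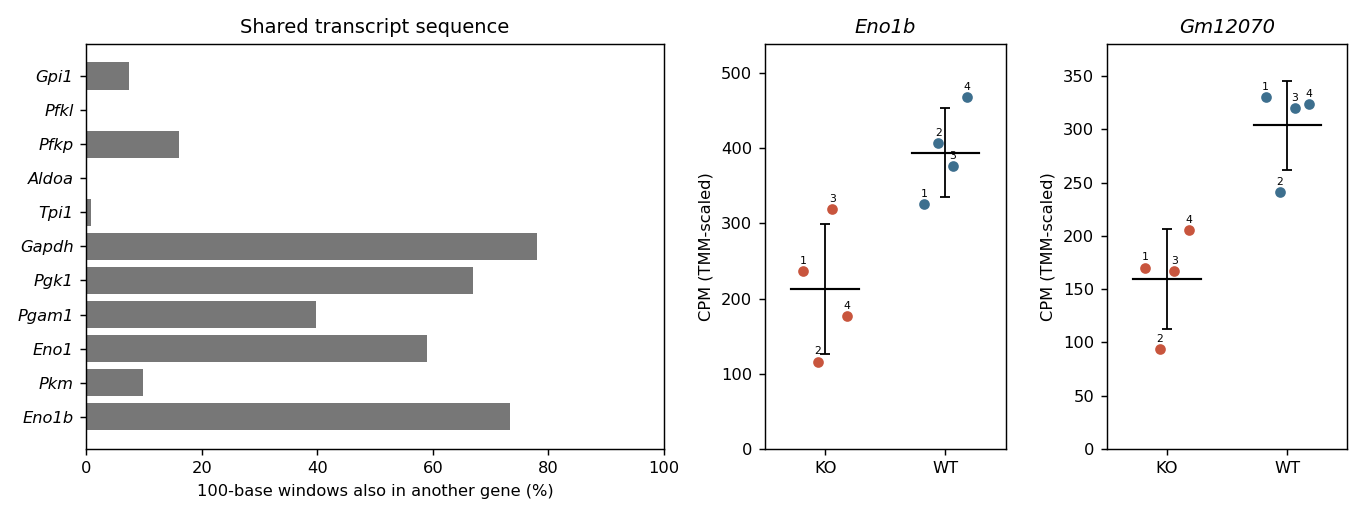
Left, percent of the 100-base windows of each transcript that also occur in another annotated gene; middle and right, CPM of the copies Eno1b and Gm12070 in 4 KO (left) and 4 WT libraries (right), with mean and SD. Gapdh shares 78.05% of its windows and Aldoa none, and both copies are lower in every KO library than in every WT library.

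In the edgeR quasi-likelihood test with Benjamini-Hochberg adjustment, 0 of 8489 genes were called (0%), 326 had an unadjusted p under 0.05, and DESeq2 called 387 of 10659 (3.63%). Neither tool called a member, and limma voom with quality weights called 4 of 8489 genes, among them 1 member, Aldoa. Since the members were chosen on this contrast, that call is no independent support for Aldoa. Of the 9 tested members 7 had lower and 2 higher estimates, with a median log2 fold change of −0.84, against −0.12 over all genes and 0.06 over 3480 genes at a mean of at least 50 CPM. For Aldoa, Tpi1, Gapdh and Pkm every KO library lay below every WT library, as for 3.91% of those 3480 genes (4.62% of all tested), while no member lay wholly above WT, as 3.05% of the 3480 did. This is given only as a background, since the members were chosen on this contrast.

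Summed over the 10 members, the level was 4128, 3090, 4082 and 5349 CPM in KO, against 6479, 6317, 6629 and 8006 CPM in WT. The KO mean was 60.7% of WT, and the sums did not overlap. Without Pkm and Aldoa the KO mean of the rest was 79.8% of WT, and KO replicate 4 lay inside the WT range. Pkm and Aldoa made up 60.5 ± 5.78% of the sum in KO and 70.2 ± 1.59% in WT (SD, n = 4 each). With the GC curves as fitted the log2 ratio of the sum was 0.09, and with centred curves −0.43, against −0.72 without an offset.

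**Figure D4:**
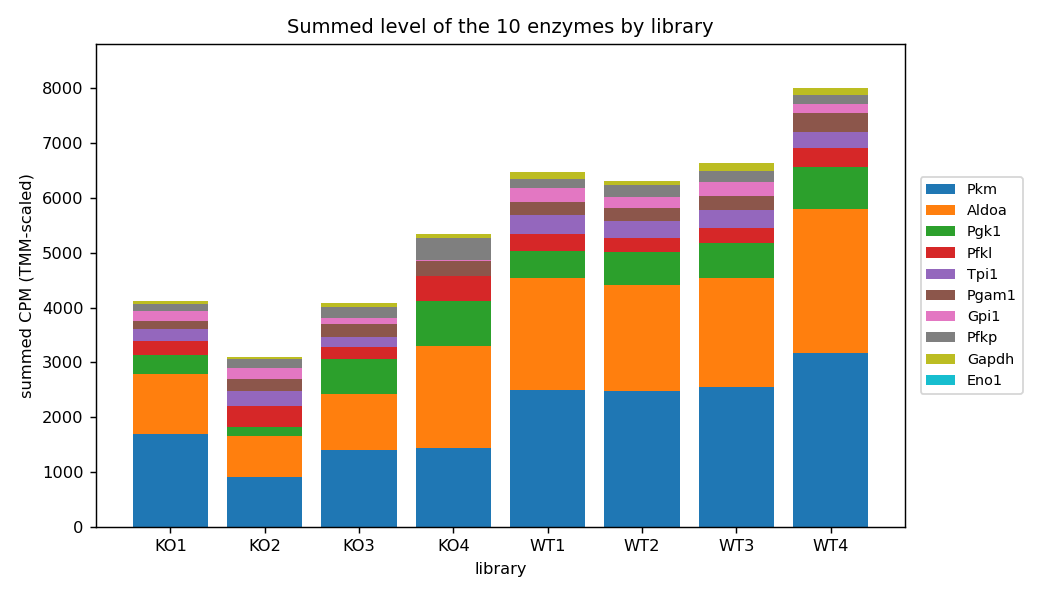
Summed CPM (vertical axis) of the 10 enzymes in each library, KO on the left and WT on the right, stacked by gene. The KO sums are 3090 to 5349 CPM and the WT sums 6317 to 8006 CPM, with Pkm and Aldoa the largest blocks.

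Per kilobase of transcript, the order of the mean WT levels was Aldoa, Pkm, Pgk1, Eno1b, Tpi1, Pgam1, Gapdh, Pfkl, Gpi1 and Pfkp, by the symbols alone. Gapdh and its copy Gm12070 together averaged 158.3 ± 47.61 CPM per kilobase of Gapdh in KO and 298.6 ± 45.23 in WT, above Eno1b, Tpi1 and Pgam1, so the place of Gapdh depends on the copy. Aldoa averaged 783.5 ± 314.1 CPM per kilobase in KO and 1422 ± 214.7 in WT, and Pkm 557.3 ± 136.5 in KO and 1100 ± 135.1 in WT. In WT, Gapdh without its copy, Pfkl and Gpi1 lay within their spread of each other, at 84.67 ± 15.95, 80.56 ± 10.45 and 76.97 ± 13.24 CPM per kilobase. Aldoa held 98.8 ± 1.9% of aldolase transcripts in KO and 99 ± 0.67% in WT. The muscle type Pfkm was at 6.4 ± 10.6 CPM in KO and 8.75 ± 10.1 CPM in WT, Aldoc at 18 ± 27.3 CPM in KO and 44 ± 33.1 CPM in WT, and Eno3 at 35 ± 52.1 CPM in KO and 4.28 ± 5.06 CPM in WT. Gapdhs, the sperm type of Gapdh, was at 4.04 ± 8.09 CPM in KO and 1.97 ± 2.33 CPM in WT, and Pgam2, the muscle type of the mutase, at 2.04 ± 4.06 CPM in KO and 2.11 ± 4.23 CPM in WT.

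Library by library, the members did not move as a block. In KO replicate 4 the log2 deviation from a gene's own mean ran from −4.64 for Tpi1 to 1.05 for Pfkp, and in KO replicate 2 from −1.63 for Pgk1 to 0.66 for Tpi1. In WT replicate 1 it ran from −0.18 for Pfkp to 0.98 for Tpi1. The coefficient of variation was larger in KO than in WT for all 9 tested members, as for 80.4% of the 3480 genes at 50 CPM or more. Pkm lay nearest to the mean of the other tested members (root-mean-square difference 0.316 on the log2 scale over 8 libraries) and Tpi1 farthest (1.74).

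**Figure D5:**
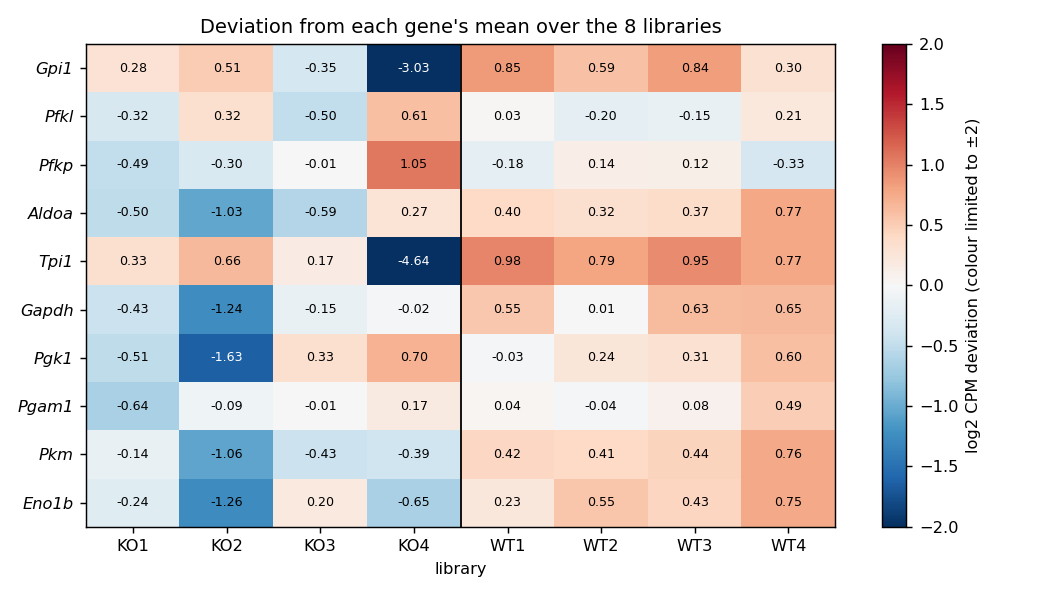
Log2 CPM deviation of 9 tested enzymes and Eno1b (rows) from each gene's mean over the 8 libraries (columns, KO left of the line, WT right), with the value in each cell. Tpi1 at −4.64 and Gpi1 at −3.03 in KO replicate 4 are the lowest cells.

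Outside the members, the 8 genes at 50 CPM or more with the profile most like the members' mean were Tspo, Ube2f, Calm3, Sh2d2a, Prr13, Ier2, Rplp0 and Mif, at root-mean-square differences of 0.169 to 0.195 among 3471 candidates. Tspo, an outer mitochondrial membrane protein, was at 259, 347.1, 307.3 and 251.1 CPM in KO, against 444, 427, 424 and 461.2 CPM in WT. Sh2d2a, an adaptor of T cell receptor signalling, was at 459.2, 512, 591.6 and 572.2 CPM in KO, against 942.5, 808.6, 930.6 and 1151 CPM in WT. Both were lower in every KO library than in every WT library. The members' mean profile was itself lower in every KO than in every WT library, so this follows largely from the selection.

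Among 100 other genes of the pathway and its branches, 74 were tested and 0 passed in either direction in edgeR (3 at an unadjusted p under 0.05), where 49 estimates were lower and 25 higher, at a median of −0.38 on the log2 scale. Over all tested genes 55% of the estimates were lower. At a mean of 50 CPM or more, 17 of 33 pathway genes were lower, and 46.7% of all such genes. DESeq2 called 2 genes of these lists, Pdk2, an inhibitory kinase of pyruvate dehydrogenase, at 0 CPM in every KO library and 2.09 to 22.7 CPM in WT, and Vegfa, an angiogenic growth factor, at 0, 26.4, 4.02 and 0 CPM in KO and 0 in every WT library. For glucose entry and lactate exit, 8 of 12 estimates were lower. Ldha, the lactate dehydrogenase subunit that turns pyruvate into lactate, was at 833 ± 190 CPM in KO and 1088 ± 295 CPM in WT, and Bsg, the chaperone of lactate carriers, at 248 ± 114 CPM in KO and 334 ± 72.4 CPM in WT. Both overlapped between the groups. For the pentose phosphate branch 5 of 6 estimates were lower, with Taldo1, transaldolase, at 120 ± 100 CPM in KO and 170 ± 16.9 CPM in WT, and Tkt, transketolase, at 106 ± 147 CPM in KO and 117 ± 34.7 CPM in WT.

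Genes that steer pyruvate or hold back glycolysis went both ways. For control genes 5 of 9 estimates were lower. Bpgm, which makes 2,3-bisphosphoglycerate, was at 83 ± 16.9 CPM in KO and 28.2 ± 18.8 CPM in WT, and Pdp2, a pyruvate dehydrogenase phosphatase, at 160 ± 143 CPM in KO and 121 ± 43.9 CPM in WT. For pyruvate entry into mitochondria 5 of 8 were lower, while Pdha1, a pyruvate dehydrogenase subunit, was at 118 ± 45.9 CPM in KO and 42.3 ± 16.1 CPM in WT and Mpc1, a mitochondrial pyruvate carrier subunit, at 155 ± 40.7 CPM in KO and 124 ± 29.2 CPM in WT. For glycogen, glycerol and hexosamine branches 8 of 13 were lower, with Gnpnat1 at 105 ± 73.4 CPM in KO and 38.5 ± 30.7 CPM in WT and Ugp2 at 132 ± 23.9 CPM in KO and 102 ± 36.6 CPM in WT.

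Among transcription factors that act on glycolytic genes and other regulators (Vhl, Egln1, Egln2 and Txnip), 8 of 11 estimates were lower. The estimates of these other regulators were 0.03 for Vhl, −0.914 for Egln1, −1.375 for Egln2 and −1.035 for Txnip. Hif1a was at 498.7 ± 245.6 CPM in KO and 524.6 ± 102 CPM in WT (−0.07). Myc was at 143.2 ± 28.27 CPM in KO and 119.5 ± 46.05 CPM in WT (0.26). Bhlhe40, a repressor active in effector T cells, was at 1538, 861.2, 1282 and 1288 CPM in KO, against 1653, 2203, 1540 and 2648 CPM in WT, without passing the test. KO replicate 1 and WT replicate 3 were almost level. Irf4, a factor of activated T cells, was at 130 ± 82.9 CPM in KO and 86.3 ± 44.5 CPM in WT. For HIF targets outside glycolysis 7 of 11 were lower, and 2 had the estimates that follow, with Bnip3l, a mitophagy receptor, at 319 ± 105 CPM in KO and 258 ± 47 CPM in WT and Ero1l, an oxidase of the endoplasmic reticulum, at 240 ± 114 CPM in KO and 203 ± 54.5 CPM in WT.

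Among markers of antigen-presenting cells, Cd74, H2-Aa, H2-Ab1 and H2-Eb1 were high in 3 of 4 KO libraries, while other markers did not all follow. Of 13 markers of monocytes, macrophages and dendritic cells, 9 were tested, with 7 higher and 2 lower estimates and 0 called. The 13 summed to 9251, 10840, 2202 and 12130 CPM in KO, against 3454, 1571, 1443 and 1491 CPM in WT, of which Cd74, H2-Aa, H2-Ab1 and H2-Eb1 made up 8632, 9885, 1840 and 10830 CPM in KO, against 2930, 1249, 1164 and 1152 CPM in WT. Cst3 was at 505.1, 861.3, 225.1 and 1164 CPM in KO, against 390.3, 230.9, 200 and 199.2 CPM in WT. Lyz2, a lysozyme of myeloid cells, was at 0, 0, 25.5 and 0.366 CPM in KO, against 22.4, 25.7, 24.6 and 22 CPM in WT. Itgam and Itgax were at 0 CPM in every KO library, and in WT at 16.5, 2.13, 0 and 0 CPM and at 19.8, 0, 0 and 0 CPM. Adgre1, the macrophage marker F4/80, had 0 counts in every library. Csf1r was at 0, 44.3, 21.9 and 0.0522 CPM in KO and 0 in every WT library. Tyrobp was at 31.7 ± 26.6 CPM in KO and 17.8 ± 6.98 CPM in WT. Cd68 was at 40.7 ± 22.1 CPM in KO and 31.6 ± 11.8 CPM in WT, and Fcer1g at 23.6 ± 16.8 CPM in KO and 28.1 ± 20.9 CPM in WT. In KO libraries 1 to 4, Pkm was at 1697, 900.4, 1395 and 1429 CPM and Aldoa at 1091, 754.1, 1029 and 1861 CPM. The marker sum lay inside the WT range in KO replicate 3 alone. How the marker levels relate to the enzyme levels was not tested.

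The 9 T cell markers counted summed to 6417 ± 930 CPM in KO and 7915 ± 1258 CPM in WT. Divided by that sum, the members stood at 0.653, 0.587, 0.622 and 0.711 in KO, against 0.799, 0.912, 0.946 and 0.832 in WT, without overlap. All 9 markers had lower estimates in KO, at a median of −0.45, while 55% of all tested genes did, and 0 were called. Cd2 (−0.10) and Lck (−0.17), the largest parts of the sum, were lowered less than Cd247 (−0.83) or Cd5 (−1.21). The ratio therefore depends on which markers fill the sum. The dissociation genes summed to 2897 ± 1170 CPM in KO and 4785 ± 1096 CPM in WT, the B cell markers to 0 to 39.6 CPM in KO and 0 to 8.13 CPM in WT, the neutrophil markers to 0 to 89.1 CPM in KO and 0 to 91.3 CPM in WT, and the CD8 T and natural killer markers to 156 ± 79 CPM in KO and 216 ± 80.1 CPM in WT. The fibroblast list summed to 78 ± 45.5 CPM in KO and 132 ± 26.6 CPM in WT, but most of that was Thy1, which T cells express and the T cell list also holds, at 64.1 ± 32.8 CPM in KO and 106 ± 34.1 CPM in WT. Col1a2 and Pdgfra had 0 counts in every library. The muscle markers summed to 0 to 87.7 CPM in KO and 45 to 74 CPM in WT, and the erythroid markers to at most 16.1 CPM in KO and 4.44 CPM in WT. The part of these cells in the enzyme levels was not tested, and fewer cells of a type and less RNA per cell cannot be told apart in such samples.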

How the data were processed

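Sorted cells were lysed, and their RNA went through a micro column and a library kit for low input, per the labels' protocols. The deposited file holds raw counts per gene symbol, whole numbers not normalized by the authors. Per the submitters' processing notes, the build was mm10 and the tools were HISAT2 2.1.0, edgeR 3.28.1 and featureCounts. The annotation, strand setting and treatment of reads with several matches are not given in the sources used here.

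All values were computed from those counts in R 4.3.3 with edgeR 4.0.16: filterByExpr (minimum count 10, minimum total 15), TMM scaling, and the quasi-likelihood test with robust dispersion, no term but genotype and Benjamini-Hochberg adjustment at 0.05 over all 8489 genes. SE was taken as the log2 fold change divided by √F. Since separate animals are not stated, p-values cover only library-to-library spread, which may be technical. DESeq2 1.42.0 and limma 3.58.1 (voom) were alternatives, with other filters and scalings, the replicate number as a block, libraries left out, and GC offsets (loess, span 0.75, genes above a mean log2 CPM of 5, GC known for 96.6% of tested genes). Transcript length, GC and the 100-base windows came from GENCODE transcripts of GRCm38 and promoters from RefSeq. Only the edgeR fit was tested on simulated counts, which held no transcript loss like that of KO replicate 4.

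The members and gene lists were chosen with earlier results of these data known. Genes named beside the members were, in each list, up to 2 with the smallest p and at least 50 CPM, since none passed in edgeR, isozymes of at least 1 CPM, and the 8 nearest profiles. Gm12070, Pdk2, Vegfa, Hif1a, Myc and the single markers named (such as Cd3e, Lyz2, Adgre1, Thy1 and the class II genes) were chosen after their values were seen.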

Additional observations from a re-analysis of the deposited data

Results flagged for a closer look

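Among 28 groups of 4 libraries examined for a library far from the others, 3 held one; about 1 in 20 such groups would by chance alone. Pkm was at 3167 CPM in WT replicate 4, above the 2484 to 2549 CPM of the other WT libraries. Aldoa was at 2631 CPM in WT replicate 4, above the 1931 to 2032 CPM of the others. The sum of Gpi1, Pfkl, Pfkp, Aldoa and Tpi1 was 2743 CPM in KO replicate 4, above the 1739 to 1859 CPM of the other KO libraries, although Gpi1 and Tpi1 were lowest there.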

How the results depend on the processing

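Of 19 alternatives, the GC offset moved the members' median and sum farthest. With the curves as fitted, the members' median log2 fold change was 0.074 (−0.22 with the replicate block). The log2 ratio of the sum was 0.093, with or without the block. With these curves 0 members and 1.37% of abundant genes were wholly below WT. With centred curves, added after that result was seen, the median was −0.53 (−0.55 with the replicate block) and the ratio −0.43. With centred curves 1 member, Pkm, and 2.56% of abundant genes were wholly below WT. KO replicate 4 also mattered: the median was −0.49 without it and −0.59 without the 4th library of each genotype, and leaving out single libraries gave −0.88 to −0.49 for the median and −0.88 to −0.63 for the sum. DESeq2 called 387 of 10659 genes, 2 of them in the pathway lists (Pdk2 and Vegfa). Voom with quality weights called 4 of 8489, and the 1 member among them (Aldoa) had been chosen on this contrast. Why the tools differed was not tested. Without KO replicate 4 the count of members wholly below WT was 4, with 7.04% of abundant genes so placed. Adding the copies Eno1b and Gm12070 gave a ratio of −0.74. Over 21 alternatives Pkm, Gapdh, Gpi1 and Tpi1 kept a negative estimate, while the sign turned in 3 for Pfkl, 3 for Pfkp, 2 for Pgam1, 1 for Pgk1 and 1 for Aldoa. Libraries of the same replicate number had correlations of −0.044, 0.031, 0.02 and −0.02, against −0.05 to 0.044 for other pairings. Values this near 0 cannot decide whether the numbers pair the libraries. With the block alone 0 genes were called. Eno1 was at 0 to 2 counts a library, too few to compare, and the cause was not tested. The tested members had 132 to 90091 counts a library.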
